A study of Mus musculus with 16 samples.

Results

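The integrated stress response genes described here are 10 mouse transcripts: Atf4, Atf3, Ddit3, Trib3, Chac1, Asns, Psat1, Phgdh, Sesn2 and Ppp1r15a. They were chosen by symbol, and each matched 1 of the 35275 gene IDs in the table of expression values. RNA came from the livers of wild-type mice (WT) and of mice with a liver-specific knockout of Zfp36l1 (LKO), and each genotype was given a control diet or a diet containing ethanol. ZFP36L1, its product, promotes the decay of mRNAs that carry AU-rich elements. The 4 groups (WT control, WT ethanol, LKO control and LKO ethanol) held 4 libraries each. Sex, age, strain, the duration of feeding and the driver of the deletion were not given in the sources used here. Libraries are numbered 1 to 4 within a group as names only. The labels do not say whether each library came from a different mouse, so the p-values measure only the spread between libraries.

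In the integrated stress response, kinases that sense unfolded protein, amino acid shortage, double-stranded RNA or heme shortage phosphorylate the translation factor eIF2. General translation then slows, while the mRNA of the transcription factor ATF4 is translated more efficiently. ATF4 and the factors it induces, among them CHOP (the product of Ddit3) and ATF3, switch on genes for amino acid synthesis, amino acid transport, glutathione turnover and feedback on the pathway. Because much of the control of ATF4 is at translation, the level of Atf4 mRNA is not a measure of ATF4 protein. In the liver the response is known from amino acid restriction, endoplasmic reticulum stress and mitochondrial stress, and Fgf21, a secreted liver hormone, is among its known targets.

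The element through which ATF4 and C/EBP proteins act together has the core TGATGNAA, and it is shown here because it is the known shared element of the pathway's target genes. RefSeq promoter windows on GRCm38.p6, from 250 bases before to 50 bases after each annotated start, were searched on both strands. All 10 genes had a window. The core was found in 4 of the 10 genes, and 3.97% of all 32851 windows held it. The cAMP response element, TGACGTCA, was found in 1 of the 10 genes and in 1.79% of all windows. No match of one motif overlapped a match of the other. Each line below gives 30 bases around a match, 5′ to 3′ on the strand named, with the match in capitals.
Atf3, chr1:191183425-191183454, plus strand: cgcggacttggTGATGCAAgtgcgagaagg
Chac1, chr2:119351038-119351067, minus strand: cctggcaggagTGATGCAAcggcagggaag
Trib3, chr2:152344028-152344057, plus strand: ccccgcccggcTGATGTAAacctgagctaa
Asns, chr6:7693214-7693243, minus strand: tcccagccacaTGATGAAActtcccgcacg
Ppp1r15a, chr7:45526262-45526291, minus strand: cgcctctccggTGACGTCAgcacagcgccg
Counted from the RefSeq start of each window, the match lay 110 to 103 bases before the start of Atf3 (191183333), 193 to 186 before that of Chac1 (119351242), 23 to 16 before that of Asns (7693209) and 12 to 5 before that of Ppp1r15a (45526268). In Trib3 it lay 15 to 22 bases after the start (152344060). These starts are not in every case the ends of the GENCODE gene spans given below, where the matches of Atf3 and Asns lie inside the span and that of Trib3 lies outside it. Atf3, Trib3, Asns and Chac1 share this core and did not behave alike in the livers, as their values below show. No binding was measured, so a match is a description of the letters only, and the absence of one in a window says nothing about the factor.

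Expression is given as FPKM, fragments counted per gene, scaled to the gene's length and to the fragments counted in the library, so levels can be compared between genes. The libraries held 19069892 to 24768555 counted reads, except WT ethanol library 2 with 9890469. That library stood apart from the rest. Its Spearman correlation with the other 15 libraries over genes was 0.664 to 0.721, 22.5% of its reads were mitochondrial against 3.64% to 6.97% elsewhere, its erythroid marker sum was 1929 FPKM against 95.2 to 282, and its cholangiocyte marker sum was 75.0 FPKM against 10.8 to 28.5. Counts of called genes are therefore also given without it. Hepatocyte markers summed to 42609 to 74920 FPKM in all 16 libraries, lowest in WT ethanol library 4. The deleted gene matched the labels: Zfp36l1 lay between 9.30 and 25.5 FPKM in the 8 WT libraries and between 0.572 and 1.76 FPKM in the 8 LKO libraries, with no overlap on either diet. RNA was from whole liver, and in bulk RNA fewer cells of a type and less RNA per cell cannot be told apart.

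**Figure D1:**
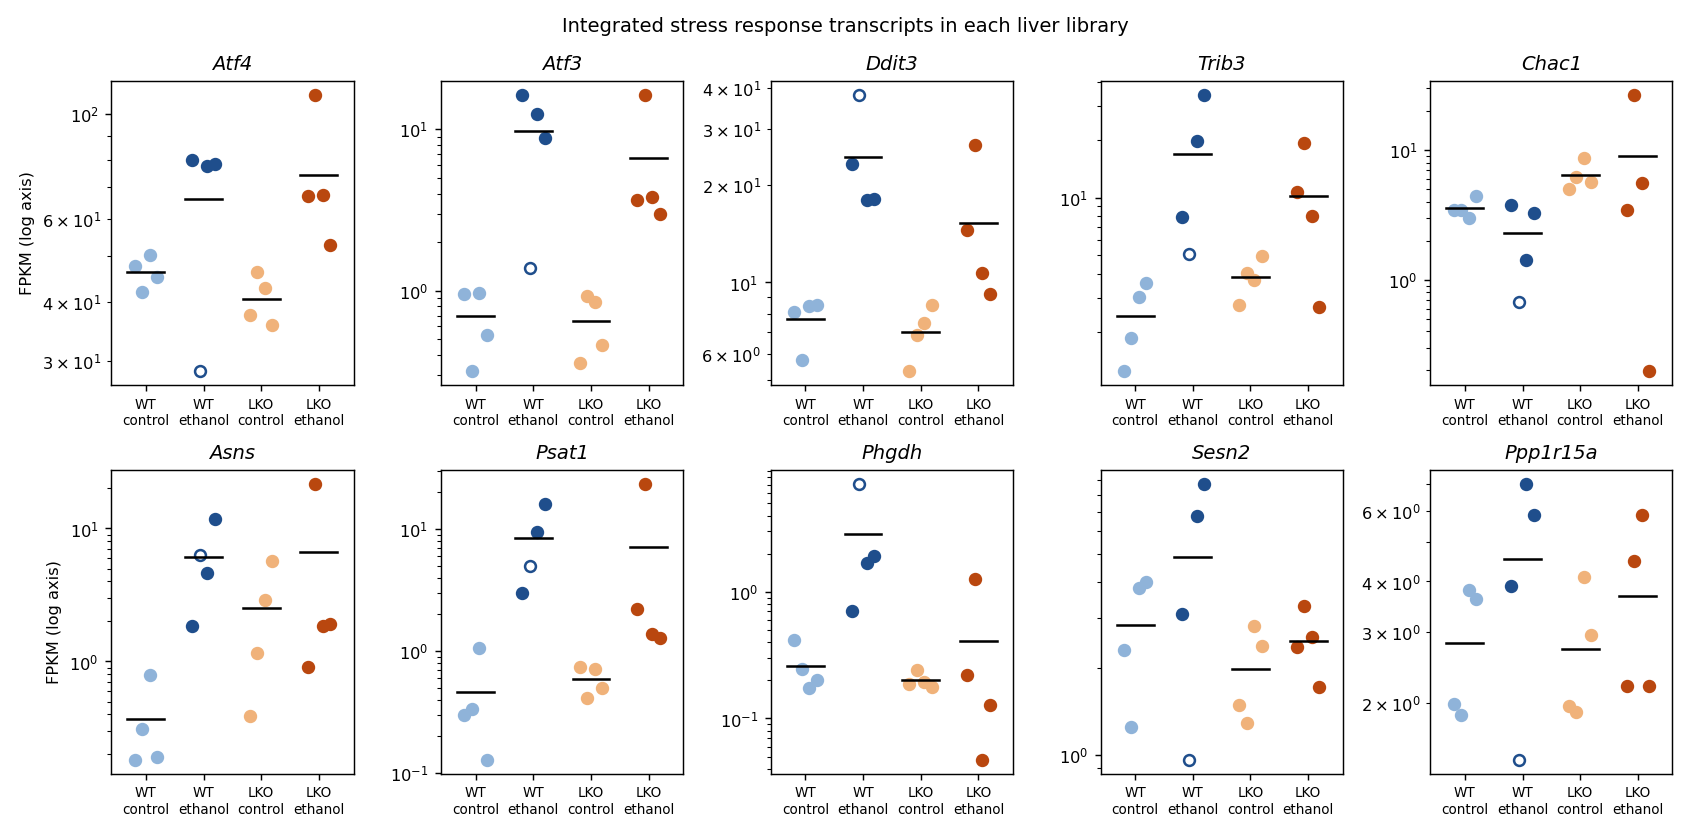
FPKM of the 10 genes in each library, on a log axis that differs between panels; points are libraries, horizontal bars are group means, and the open circle is WT ethanol library 2. Atf3 and Psat1 sit higher in all 8 ethanol libraries than in the control libraries of their genotype, while Chac1 spreads from 0.197 to 26.8 FPKM within LKO ethanol.

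In WT livers, ethanol was accompanied by higher mRNA for 5 of the 10 genes: the transcription factors Atf3 and Ddit3, the pseudokinase Trib3, and the serine synthesis enzymes Psat1 and Phgdh. No member fell past the threshold. Changes were tested with limma on log2(FPKM + 1), with p-values adjusted over the 11298 genes that reached 1 FPKM in at least 4 libraries and a call at an adjusted p under 0.05. On this scale the change of a gene near 1 FPKM is understated. In the same comparison 4.18% of all genes tested were called, and 2.58% were called higher. The median change of the 10 genes was 1.43, against -0.02 for all genes. These medians were 1.09 and 0.17 without WT ethanol library 2. Without WT ethanol library 2, 6 of the 10 were called higher, Atf4 being added, against 7.23% of all genes called higher. With no filter on low values, 24377 genes were tested and only Ddit3 of the 10 was called. The count was 0 without WT control library 2 and 1 without WT control library 4. It was 2 without WT control library 1 or WT ethanol library 4, and 3 without WT ethanol library 3. With only the WT groups in the fit it was 2, Psat1 and Asns, and Asns was not among the 5 called above.

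In LKO livers none of the 10 genes passed the threshold, against 0.425% of all genes called. At an unadjusted p under 0.05 there were 4 members (Atf4, Atf3, Ddit3 and Psat1), against 9.19% of all genes, and limma's voom method on recovered reads also called 0. The median change was 0.68, against 0.06 for all genes. Without WT ethanol library 2, which changes only the estimate of the spread here, Atf4 and Atf3 were called higher, against 2.22% of all genes. That the count was 5 in WT and 0 in LKO does not show a different response: the difference was tested directly as the interaction, described further on.

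All 10 genes passed the filter on low values, but not on the same footing. Phgdh reached 1 FPKM in 4 libraries and Atf3 in 8, and all of these were ethanol libraries. Psat1 reached it in 8 ethanol libraries and 1 control library, and Asns in 7 ethanol and 3 control libraries. These genes were therefore tested because of the diet group in which they were high. The other 6 reached 1 FPKM in 14 to 16 libraries. Counts of reads set the precision: Atf4 rested on 486 to 3998 reads per library, Psat1 on 7 to 1302, Asns on 7 to 925 and Phgdh on only 2 to 134.

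**Figure D2:**
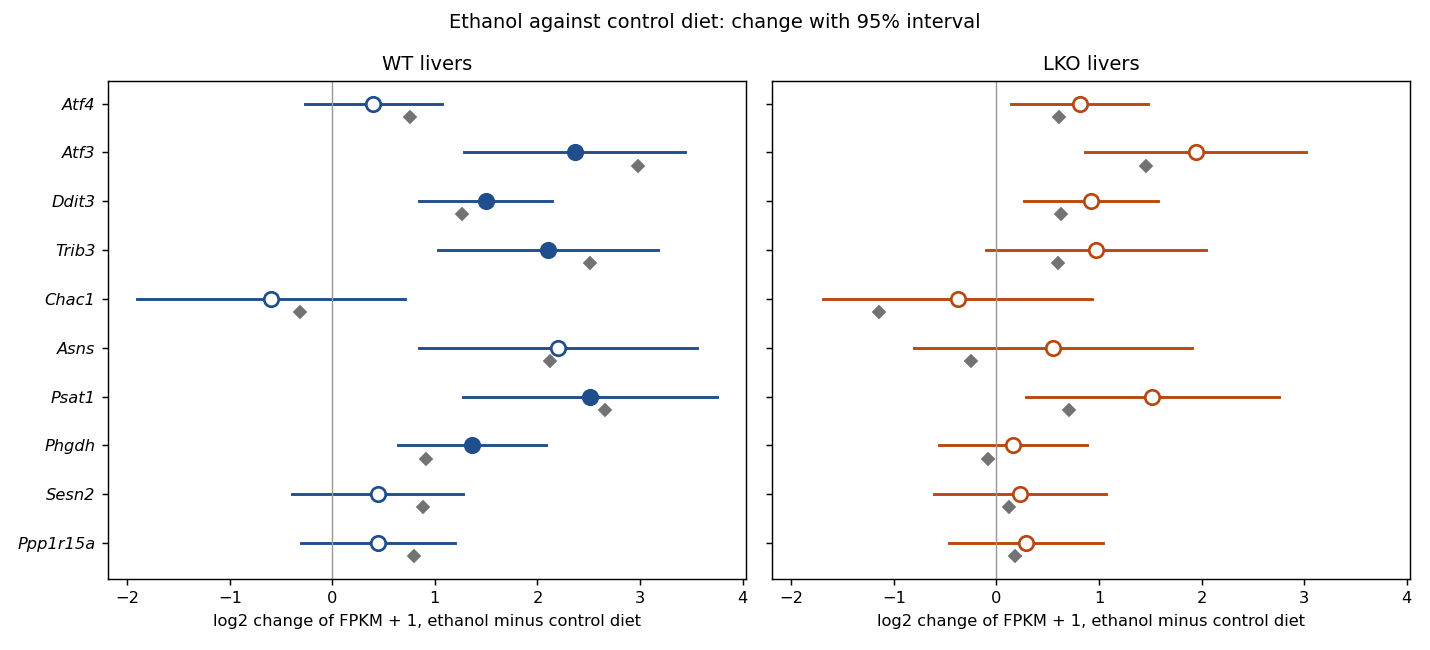
Log2 change of FPKM + 1, ethanol minus control diet, for each gene in WT (left) and LKO livers (right), with the 95% interval as a line; filled circles passed an adjusted p under 0.05. Grey diamonds give the change without WT ethanol library 2 (left) or without LKO ethanol library 2 (right): in LKO livers Asns moves from 0.55 to -0.25.

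Atf4 (chr15:80255184-80257541 on GRCm38), the central activator of the pathway, was the most abundant of the 10 transcripts in every library except WT ethanol library 2. In WT livers it was at 47.6, 41.9, 50.2 and 45.1 FPKM in the control libraries and at 79.9, 28.5, 77.5 and 78.4 FPKM in the ethanol libraries. In LKO livers it was at 37.5, 46.4, 42.8 and 35.7 FPKM on the control diet and at 67.1, 109.9, 67.4 and 52.7 FPKM on ethanol. The other 3 WT ethanol libraries were close together and above all WT controls, while library 2 was below every WT control. The LKO groups did not overlap. With all libraries, the change was 0.40 ± 0.32 (log2, SE; adjusted p = 0.519) in WT and 0.81 ± 0.32 (adjusted p = 0.403) in LKO. Without WT ethanol library 2 the WT mean on ethanol was 78.6 ± 1.2 FPKM (SD, n = 3), and Atf4 rose by 0.76 in WT (adjusted p = 0.0322) and by 0.81 in LKO (adjusted p = 0.0297). One library therefore decided the call for Atf4 in both genotypes.

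Atf3 (chr1:191170296-191218039) encodes a stress-inducible transcription factor of the ATF and CREB family. It was low in control livers, at 0.952, 0.317, 0.972 and 0.532 FPKM in WT and at 0.354, 0.922, 0.850 and 0.463 FPKM in LKO. On ethanol it reached 16.3, 1.38, 12.5 and 8.83 FPKM in WT and 3.67, 16.2, 3.79 and 2.99 FPKM in LKO. Every ethanol library was above every control library of either genotype. In WT it rose by 2.36 ± 0.51 (log2, SE; adjusted p = 0.0174). The LKO change was 1.94 ± 0.51 with an adjusted p of 0.116, and without WT ethanol library 2 it was called, with an adjusted p of 0.00933. Leaving out WT control library 2 or 4 ended the WT call (adjusted p = 0.0603 and 0.0563), with the direction kept. So did testing with no filter on low values (0.0581), Atf3 having passed that filter through ethanol libraries alone, and fitting only the WT groups (0.0830).

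Ddit3 (chr10:127290774-127296288) encodes CHOP, a transcription factor that promotes cell death under prolonged stress. It was at 8.12, 5.75, 8.43 and 8.52 FPKM in WT controls and at 23.4, 38.2, 18.0 and 18.2 FPKM on ethanol. The matching LKO values were 5.31, 6.87, 7.47 and 8.49 FPKM on control diet and 14.5, 26.6, 10.7 and 9.21 FPKM on ethanol. Within each genotype the groups did not overlap, and LKO ethanol library 4 lay just above the highest LKO control. Ddit3 rose by 1.49 ± 0.31 in WT (log2, SE; adjusted p = 0.0137), from a mean of 7.70 ± 1.31 to 24.4 ± 9.50 FPKM (SD, n = 4). Its LKO change was 0.92 ± 0.31 (adjusted p = 0.270). The highest WT value came from library 2, in which Atf4 was lowest, and without that library the WT change was 1.27 (adjusted p = 0.0117). The adjusted p was 0.0561 without WT control library 2 and 0.0713 with only the WT groups in the fit.

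Trib3 (chr2:152337422-152344032) encodes a pseudokinase that is induced by ATF4 and CHOP and restrains them in turn. WT controls were at 1.24, 1.84, 3.02 and 3.6 FPKM, and WT ethanol libraries were at 7.96, 5.09, 19.8 and 34.4 FPKM. LKO controls were at 2.75, 4.06, 3.74 and 4.95 FPKM, and LKO ethanol libraries were at 10.7, 19.3, 8.0 and 2.69 FPKM. The WT groups did not overlap, although ethanol libraries 1 and 2 were well below libraries 3 and 4. In LKO, ethanol library 4 was below every control. Trib3 rose by 2.10 ± 0.51 in WT (log2, SE; adjusted p = 0.0284), and its LKO change was 0.97 ± 0.51 (adjusted p = 0.621). The WT call was lost without any 1 of WT control libraries 1, 2 and 4 and WT ethanol libraries 3 and 4, at adjusted p-values of 0.0563 to 0.0954. It was also lost with no filter, with libraries scaled to equal sums and with only the WT groups in the fit (0.0713 to 0.101).

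Psat1 (chr19:15904678-15947337), phosphoserine aminotransferase of the serine pathway, was at 0.301, 0.336, 1.07 and 0.128 FPKM in WT controls and at 3.0, 4.98, 9.50 and 16.1 FPKM in WT ethanol libraries. LKO controls were at 0.739, 0.413, 0.707 and 0.495 FPKM, and LKO ethanol libraries were at 2.19, 23.6, 1.38 and 1.28 FPKM. Ethanol libraries were above controls in both genotypes, but in LKO library 2 was far above the other 3. Psat1 rose by 2.51 ± 0.59 in WT (log2, SE; adjusted p = 0.0237), the largest change among the 10 genes with all libraries. Atf3 changed more without WT ethanol library 2, by 2.98, while Psat1 did not exceed 2.85 with any 1 library left out. In LKO the change was 1.52 ± 0.59 (adjusted p = 0.387), and 0.71 without LKO ethanol library 2. Without any 1 of WT control libraries 1, 2 and 4 and WT ethanol libraries 3 and 4, the adjusted p for Psat1 in WT was 0.0508 to 0.0792, and with no filter it was 0.0743.

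Phgdh (chr3:98313170-98339990), phosphoglycerate dehydrogenase, catalyses the first step of the same pathway. It was at 0.416, 0.244, 0.173 and 0.203 FPKM in WT controls and at 0.706, 7.16, 1.67 and 1.91 FPKM on ethanol. In LKO it was at 0.186, 0.242, 0.196 and 0.177 FPKM on control diet and at 0.222, 1.25, 0.0471 and 0.128 FPKM on ethanol. The WT groups did not overlap, with the highest value in library 2, and 3 of the 4 LKO ethanol libraries were inside or below the control range. Phgdh rose by 1.36 ± 0.34 in WT (log2, SE; adjusted p = 0.0340) and by 0.92 without WT ethanol library 2 (adjusted p = 0.0241). The LKO change was 0.16 ± 0.34 (adjusted p = 0.991). The WT call of Phgdh was lost under more alternatives than the other 4: it ended without any 1 of the 4 WT controls or WT ethanol library 4, at adjusted p-values of 0.0609 to 0.0920, and voom on recovered reads gave an adjusted p of 0.0535. Quantile normalization (0.0669), no filter (0.0891) and only the WT groups in the fit (0.160) ended it too, and Phgdh had passed the filter through its 4 ethanol libraries alone.

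Asns (chr6:7675169-7693254), asparagine synthetase, was at 0.182, 0.312, 0.794 and 0.190 FPKM in WT controls and at 1.84, 6.32, 4.64 and 11.7 FPKM on ethanol, without overlap. In LKO it was at 0.392, 1.16, 2.88 and 5.66 FPKM on control diet and at 0.903, 21.8, 1.83 and 1.90 FPKM on ethanol. The LKO controls spread over more than the WT controls, and only ethanol library 2 was above them. The WT change of 2.20 ± 0.64 (log2, SE) missed the threshold, with an adjusted p of 0.0629. It passed without WT ethanol library 1 (adjusted p = 0.0296) and without LKO ethanol library 2 (adjusted p = 0.0107). It also passed with pseudocounts of 0.1 (3.62, adjusted p = 0.0330) and 0.5 (2.75, adjusted p = 0.0463), with quantile normalization, with array weights and with only the WT groups in the fit, at adjusted p-values of 0.00129 to 0.0448 for the last 3. Voom gave 3.93, which did not pass. In LKO the change was 0.55 ± 0.64 (adjusted p = 0.928) and turned to -0.25 without ethanol library 2.

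Chac1 (chr2:119351229-119354381), which encodes an enzyme that breaks down glutathione, did not follow the other members. WT controls were at 3.49, 3.46, 2.98 and 4.46 FPKM and WT ethanol libraries at 3.77, 0.679, 1.43 and 3.28 FPKM. LKO controls were at 4.99, 6.17, 8.77 and 5.74 FPKM and LKO ethanol libraries at 3.48, 26.8, 5.63 and 0.197 FPKM. In WT, 3 of the 4 ethanol values were below the control mean of 3.6 FPKM, and the LKO ethanol libraries lay on both sides of the controls. The change was -0.60 ± 0.62 (log2, SE; adjusted p = 0.637) in WT and -0.38 ± 0.62 (adjusted p = 0.977) in LKO, and Chac1 was the only member with a value below 0 in both. Its 95% intervals, -1.90 to 0.71 and -1.69 to 0.93, leave room for a change in either direction. The LKO value was 0.36 without LKO ethanol library 4 and -1.15 without library 2.

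Sesn2 and Ppp1r15a were not called in either genotype. Sesn2 (chr4:132492032-132510501) encodes a leucine-binding protein that holds back mTORC1. It was at 2.31, 1.25, 3.79 and 3.99 FPKM in WT controls and at 3.08, 0.960, 6.74 and 8.77 FPKM in WT ethanol libraries, and at 1.49, 1.29, 2.79 and 2.39 FPKM in LKO controls and at 2.36, 3.29, 2.56 and 1.72 FPKM in LKO ethanol libraries. All groups overlapped, with changes of 0.44 ± 0.40 in WT (log2, SE; adjusted p = 0.577) and 0.23 ± 0.40 in LKO (adjusted p = 0.982). Ppp1r15a (chr7:45522916-45526268) encodes GADD34, which directs a phosphatase to eIF2 and so ends the response. It was at 1.98, 1.87, 3.80 and 3.62 FPKM in WT controls, at 3.90, 1.44, 7.01 and 5.84 FPKM in WT ethanol libraries, at 1.96, 1.89, 4.10 and 2.94 FPKM in LKO controls and at 2.19, 4.51, 5.84 and 2.20 FPKM in LKO ethanol libraries. Its groups overlapped too, with changes of 0.45 ± 0.36 (adjusted p = 0.519) and 0.29 ± 0.36 (adjusted p = 0.939). The WT changes without WT ethanol library 2 were 0.89 for Sesn2 (adjusted p = 0.0872) and 0.80 for Ppp1r15a (adjusted p = 0.111), and the WT groups of Ppp1r15a no longer overlapped. With a term for 2 sets of libraries, described further on, added to that fit, Sesn2 was called in WT (0.80, adjusted p = 0.0402). The sets were read from the variation of these same libraries, so the p-values of that fit are too small, and it called 19.7% of all genes. Array weights gave 1.17 for Sesn2 (adjusted p = 0.00120) and 1.10 for Ppp1r15a (adjusted p = 0.00204) in WT, in a fit that called 38.4% of all genes.

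Counted by overlap alone, 6 of the 10 genes (Atf3, Ddit3, Trib3, Asns, Psat1 and Phgdh) were higher in every WT ethanol library than in every WT control, against 5.62% of all genes tested. There were 8 without WT ethanol library 2, with Atf4 and Ppp1r15a added, against 15.6% of all genes. In LKO this held for 4 of the 10 (Atf4, Atf3, Ddit3 and Psat1), against 8.15% of all genes. Atf3, Ddit3 and Psat1 were in both counts. Atf3 and Phgdh had passed the filter on low values through ethanol libraries alone, and Psat1 and Asns mostly through them. For these genes the filter favoured a higher value on ethanol, so their counts and calls here are not independent of it. Averaged over the genotypes, ethanol was accompanied by a rise of Atf3 (2.15 ± 0.36, adjusted p = 0.00190), Ddit3 (1.21 ± 0.22, adjusted p = 0.00285), Trib3 (1.54 ± 0.36, adjusted p = 0.0151) and Psat1 (2.02 ± 0.41, adjusted p = 0.00645). These 4 calls of 10 stood against 4.59% of all genes called higher, or 7.78% called in either direction. Leaving out WT ethanol library 2 gave 6, with Atf4 and Phgdh added, against 14.8% of all genes called higher. The 4 calls were each kept under all 16 ways of leaving out 1 library, while with no filter that of Trib3 was lost (adjusted p = 0.0521). Atf4, Asns and Phgdh had adjusted p-values of 0.112, 0.0741 and 0.0638 in this average.

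Deletion of Zfp36l1 gave no call among the 10 genes on either diet. On the control diet 0 members were called, against 0.00885% of all genes, which is Zfp36l1 itself, and 0 had an unadjusted p under 0.05 in limma. Chac1 was the only member whose groups did not overlap: all 4 LKO controls were above all 4 WT controls, against 1.61% of all genes, with a mean of 6.42 ± 1.64 FPKM in LKO and 3.6 ± 0.617 FPKM in WT (SD, n = 4). Its change was 0.68 ± 0.62 (log2, SE; adjusted p = 1.0). Asns had a larger difference, 1.14 ± 0.64, with overlapping groups. Leaving out WT ethanol library 2 also gave 0 calls.

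On ethanol 0 members were called between genotypes, against 0.0797% of all genes. For 0 of the 10 were the groups apart, against 0.894% of all genes with LKO higher and 1.8% with LKO lower. At an unadjusted p under 0.05 there were 2, Ddit3 and Phgdh, against 11.9% of all genes, and voom called 0, as did limma without WT ethanol library 2. With all libraries Phgdh had the largest difference, -1.26 ± 0.34 (log2, LKO minus WT, SE; adjusted p = 0.201). Its mean was 0.412 ± 0.564 FPKM in LKO and 2.86 ± 2.91 FPKM in WT (SD, n = 4). It was called when WT ethanol library 1, the lowest of the WT ethanol group for this gene, was left out (-1.57, adjusted p = 0.0198). Without WT ethanol library 2, the highest of that group, the Phgdh difference was -0.82, and that of Atf3 was larger, at -1.07. Of the 10 differences, 8 were below 0, Atf4 and Chac1 being the exceptions, and that of Atf4 turned from 0.23 to -0.13 without WT ethanol library 2. These signs differed between the library sets, as described further on. Averaged over both diets, 0 members were called between genotypes, against 0.142% of all genes, and Phgdh was the only member with an unadjusted p under 0.05 (-0.67 ± 0.24, adjusted p = 0.356), against 10.4% of all genes. That average gave 0 calls without WT ethanol library 2 as well.

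The direct test of whether the ethanol response differed between genotypes called 0 of the 10 genes and 0 of all 11298 genes (0%), by limma and by voom alike, and 0 of the 10 without WT ethanol library 2. At an unadjusted p under 0.05 limma gave 362 genes, of which Phgdh was the only member, and voom gave 291. Interaction values (LKO response minus WT response) ran from -1.65 ± 0.91 for Asns to 0.41 ± 0.45 for Atf4 (log2, SE), with adjusted p-values of 0.927 or more. The 95% intervals were wide: -3.57 to 0.27 for Asns, -2.65 to 0.39 for Trib3, -2.22 to -0.18 for Phgdh and -1.95 to 1.10 for Atf3. Phgdh had an interaction of -1.20 with all libraries and -0.75 without WT ethanol library 2. With intervals of this width the responses were shown neither to differ nor to be alike.

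**Figure D3:**
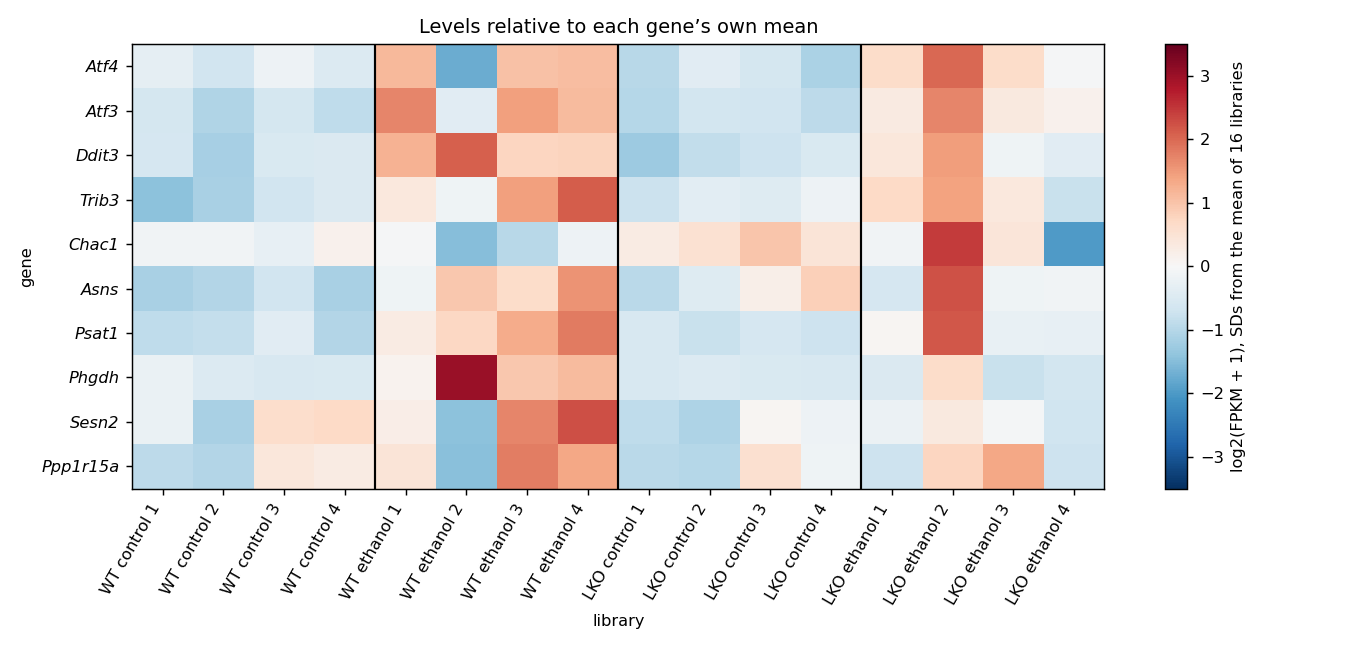
Colour gives log2(FPKM + 1) of each gene (rows) in each library (columns) as SDs from the gene's mean over 16 libraries; black lines separate the groups. The column of LKO ethanol library 2 is high for 9 of the genes relative to its group, and WT ethanol library 2 combines a low Atf4 with the highest Phgdh, 3.02 SDs above the mean.

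Within the ethanol groups, single libraries were high or low for many of the genes at once. LKO ethanol library 2 held the highest value of its group for 9 of the 10 genes, Ppp1r15a being the exception. LKO ethanol library 4 held the lowest for 7. In WT ethanol, library 4 was highest for Trib3, Asns, Sesn2 and Psat1, and library 2 was lowest for 6 genes and highest for Ddit3 and Phgdh. Without LKO ethanol library 2 the median change of the 10 genes in LKO was 0.39 in place of 0.68, and 0 were called.

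Markers of some other liver cells moved with these libraries, while those of others did not. All 6 Kupffer cell and macrophage markers reached 1 FPKM, and their summed level was 119.5, 80.5, 192 and 234 FPKM in WT ethanol and 95.8, 223, 40.4 and 61.0 FPKM in LKO ethanol. The controls ranged from 68.7 to 175 FPKM in WT and from 62.6 to 194 FPKM in LKO. The 5 sinusoidal endothelial markers summed to 46.3, 12.1, 57.4 and 72.6 FPKM in WT ethanol and to 52.0, 87.4, 34.6 and 45.1 FPKM in LKO ethanol, with controls at 36.5 to 70.2 FPKM in WT and 28.2 to 83.5 FPKM in LKO. Both sums were highest in WT ethanol library 4 and LKO ethanol library 2, the libraries in which Trib3, Asns and Psat1 were highest. The stellate cell markers summed to 10.3, 11.8, 22.3 and 30.4 FPKM in WT ethanol and to 6.96 to 11.7 FPKM in LKO ethanol, with controls at 7.24 to 15.7 FPKM in WT and 6.85 to 10.2 FPKM in LKO. Within LKO ethanol that sum was highest in library 4, at 11.7 FPKM. Over all libraries it was highest in WT ethanol libraries 3 and 4. The hepatocyte sum was 72232, 63307, 52041 and 42609 FPKM in WT ethanol, lowest in the same pair of libraries. In LKO ethanol it was 71297, 67329, 56068 and 56631 FPKM, so library 2 was not low there. Of the 5 neutrophil markers 3 reached 1 FPKM, Ly6g and Mpo being below it in all 16 libraries. Their sum was highest in LKO ethanol library 2 too, within ranges of 0.938 to 6.11 FPKM in WT control, 2.58 to 11.3 in WT ethanol, 1.5 to 5.06 in LKO control and 2.84 to 20.3 in LKO ethanol. Within WT ethanol the neutrophil sum was highest in library 2, at 11.3 FPKM, against 9.73 FPKM in library 4. The T and B cell sum was lowest of its group in WT ethanol library 4, at 1.35 FPKM. In LKO ethanol it was highest in libraries 1 and 2, at 2.80 FPKM each. The part of these cells in the results was not tested.

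Apart from WT ethanol library 2, libraries were split into 2 sets by sign on the first principal component of the within-group variation. That component held 40.0% of the variation. The sets in each group were libraries 1 and 2, and libraries 3 and 4. Values were centred within each group, so every group had to hold both signs, and the split alone does not show separate sets. In LKO ethanol, library 2 scored 0.121 and library 3 scored -0.0926. The labels give no batch that would match. With library 2 left out, the first set of WT ethanol was library 1 alone. In WT the ethanol difference (log2, mean difference) within the 2 sets was 3.44 and 2.73 for Atf3, 1.64 and 1.01 for Ddit3, 1.83 and 2.66 for Trib3 and 1.6 and 3.13 for Psat1. Phgdh had 0.36 and 1.23, Asns 1.19 and 2.53 and Atf4 0.82 and 0.70. In LKO the values were 2.48 and 1.41 for Atf3, 1.02 and 0.60 for Atf4, 1.56 and 0.28 for Ddit3 and 2.50 and 0.54 for Psat1. Trib3 had 1.82 and 0.12, and Ppp1r15a 0.52 and 0.06. The sign differed between the sets for Asns (1.93 and -0.82), Chac1 (0.77 and -1.53), Sesn2 (0.67 and -0.20) and Phgdh (0.45 and -0.13). Between genotypes on ethanol, LKO minus WT was below 0 for all 10 genes in the second set, among them Psat1 (-2.52), Trib3 (-2.23), Asns (-1.56) and Sesn2 (-1.48). In the first set it was above 0 for Psat1 (1.15), Trib3 (0.78), Asns (1.21), Chac1 (1.23) and Atf4 (0.10).

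Across all 16 libraries, Atf4 and Atf3 had a Spearman correlation of 0.874 and Sesn2 and Ppp1r15a one of 0.894, the highest among the 45 pairs. The first became 0.975 without WT ethanol library 2. Chac1 had no member more like it than Ppp1r15a, at 0.132. Of all genes tested, the one most like each member was Clp1 for Atf4 (0.956), Klf6 for Atf3 (0.944), Blcap for Ddit3 (0.971), Trib3's being Chmp7 (0.935) and that of Asns Ftl1 (0.894). For the others it was Ciao2b for Chac1 (0.788), Csnk2a2 for Sesn2 (0.974), Leprotl1 for Psat1 (0.962), Ipo5 for Phgdh (0.956) and Ube2j2 for Ppp1r15a (0.976). With all 16 libraries the best match of each member among all genes was thus not another member, while without WT ethanol library 2 Atf4 and Atf3 were each other's best match. These correlations describe points that share group and library quality, and no p is given.

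Other genes of the pathway were taken from 5 lists. Of 21 eIF2 kinases, eIF2 and eIF2B subunits and related factors, 0 were called in either genotype. The shares of all genes called were 4.18% in WT and 0.425% in LKO. The median change of the list was -0.17 in WT and 0.18 in LKO, against -0.02 and 0.06 for all genes. Leaving out WT ethanol library 2 turned the WT median to 0.23, against 0.17 for all genes. At an unadjusted p under 0.05 limma gave 4 in WT, all higher, and 0 in LKO, against 19.7% and 9.19% of all genes. In WT, Eif2b3 (1.09, adjusted p = 0.0593), Eif2b2 (1.11, adjusted p = 0.0824) and Impact (0.73, adjusted p = 0.106) came nearest. Eif2b2 and Eif2b3 encode subunits of the exchange factor that recharges eIF2, and Impact encodes an inhibitor of the amino acid sensing kinase. Without WT ethanol library 2, Eif2b2 (0.65, adjusted p = 0.0385) and Impact (0.82, adjusted p = 0.0498) were called in WT and Eif2b4 (0.60, adjusted p = 0.0372), another subunit of that factor, in LKO, against 7.23% and 2.22% of all genes called higher.

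Of 14 tested genes for amino acid synthesis and transport (18 listed), 1 was called higher in WT and 0 in LKO by limma, against 7 and 3 at an unadjusted p under 0.05. The shares of all genes were 2.58% called higher in WT and 0.425% called in LKO, and 19.7% and 9.19% at an unadjusted p under 0.05. The median changes were 0.58 and 0.45. The one called was Psph, the phosphatase that completes serine synthesis after Phgdh and Psat1. It rose by 1.48 in WT (adjusted p = 0.0354) from a mean of 1.53 ± 0.218 to 6.71 ± 3.93 FPKM (SD, n = 4), and its LKO change was 1.09 (adjusted p = 0.287). With no filter on low values, Psat1 (adjusted p = 0.0743), Phgdh (adjusted p = 0.0891) and Psph were not called in WT. The only call of the list was then Slc7a1, a cationic amino acid transporter that the filter had left out, named here after its values were seen. Gpt2, an alanine aminotransferase, had a change of 1.0 in WT (adjusted p = 0.0593) and was called without WT ethanol library 2 (1.14, adjusted p = 0.0135), as Psph was, and Aldh18a1, which starts proline synthesis, had one of 1.4 (adjusted p = 0.0608). Mthfd2, a mitochondrial one-carbon enzyme, had 1.13 in LKO (adjusted p = 0.426).

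Among 20 aminoacyl-tRNA synthetases, which charge tRNAs and include known ATF4 targets, 1 was called in WT and 0 in LKO by limma, against 6 and 1 at an unadjusted p under 0.05. All genes were called at 4.18% in WT and 0.425% in LKO, and 19.7% and 9.19% had an unadjusted p under 0.05. Sars, for serine, rose by 1.37 in WT (adjusted p = 0.0473), with WT ethanol library 2 the highest at 75.9 FPKM and a change of 0.99 without it (adjusted p = 0.0468). Qars, for glutamine, was called in WT without that library (0.62, adjusted p = 0.0461), and with no filter on low values 0 of the list were called. Wars had 0.81 (adjusted p = 0.0608) and Lars 0.65 (adjusted p = 0.128) in WT. The median changes of the list were 0.20 in WT and 0.22 in LKO, against -0.02 and 0.06 for all genes. Leaving out WT ethanol library 2 gave a WT median of 0.36, against 0.17 for all genes.

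Of 19 tested further targets of ATF4 or CHOP (24 listed), 4 were called higher in WT (Nupr1, Vldlr, Eif4ebp1 and Dusp8) and 1 in LKO (Dusp8), with median changes of 0.63 and 0.21. The shares of all genes were 2.58% called higher in WT and 0.425% called in LKO. At an unadjusted p under 0.05 limma gave 8 in WT, 6 of them higher, and 8 in LKO, 7 of them higher, against 19.7% and 9.19% of all genes. With WT ethanol library 2 left out, 9 of the 19 were called higher in WT, against 7.23% of all genes, with Jdp2, Ddit4, Gdf15, Sqstm1 and Ero1l added. In LKO, with the same library left out, 4 were called higher (Gdf15, Vldlr, Ero1l and Dusp8), against 2.22% of all genes, and Herpud1 was called lower (-1.20, adjusted p = 0.0249). With all libraries and no filter on low values, Nupr1 and Dusp8 were called in WT and 0 of the list in LKO. Nupr1, a small stress-induced chromatin protein, rose by 1.88 in WT (adjusted p = 0.00365), from a mean of 0.805 ± 0.564 to 5.51 ± 1.11 FPKM (SD, n = 4). Dusp8, a phosphatase for MAP kinases, rose by 1.84 in WT (adjusted p = 0.00494) and by 1.46 in LKO (adjusted p = 0.0469), both without overlap. Vldlr, the receptor that takes up very low density lipoprotein, rose by 1.0 in WT (adjusted p = 0.0429), and its LKO change was 1.06 (adjusted p = 0.101, and 0.00768 without WT ethanol library 2). Gdf15, a secreted stress cytokine, had 2.64 in LKO (adjusted p = 0.111) and was called there without WT ethanol library 2 (adjusted p = 0.0340).

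Fgf21 itself was at 3.95, 4.28, 37.2 and 8.05 FPKM in WT controls and at 16.2, 3.15, 55.3 and 48.9 FPKM in WT ethanol libraries. In LKO it was at 7.04, 6.48, 13.1 and 6.47 FPKM on the control diet and at 57.0, 113, 63.0 and 9.46 FPKM on ethanol. Within LKO ethanol it was highest in library 2 and lowest in library 4. The groups overlapped in both genotypes, and the changes of 1.12 ± 0.82 in WT (log2, SE; adjusted p = 0.480) and 2.36 ± 0.82 in LKO (adjusted p = 0.297) did not pass. The mean over both genotypes was 1.74 (adjusted p = 0.0774). The WT change without WT ethanol library 2 was 1.90 (adjusted p = 0.122), the LKO adjusted p was 0.0736, and the mean over both genotypes was called, at 2.13 (adjusted p = 0.00916).

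A list of 15 endoplasmic reticulum genes, mostly chaperones and folding enzymes, reports on the other arms of the unfolded protein response. It also holds Xbp1 and Edem1, which are neither. The list gave 0 calls in WT and 0 in LKO by limma, and 0 in each at an unadjusted p under 0.05. The shares of all genes were 4.18% and 0.425% called, and 19.7% and 9.19% at an unadjusted p under 0.05. The median change of the list was -0.30 in WT and 0.18 in LKO, against -0.02 and 0.06 for all genes. Without WT ethanol library 2 the WT median was 0.13, against 0.17 for all genes. Hspa5, the main chaperone of the compartment, was at 283 ± 91.0 FPKM in WT controls and 294 ± 186 FPKM in WT ethanol, and at 232 ± 48.3 and 414 ± 66.1 FPKM in LKO (SD, n = 4). The LKO groups did not overlap for Hspa5, with a change of 0.84 (adjusted p = 0.703, and 0.0647 without WT ethanol library 2). Pdia4 had the lowest adjusted p of the list in WT, 0.275, with a change of -0.74, which was -0.26 (adjusted p = 0.426) without WT ethanol library 2.

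**Figure D4:**
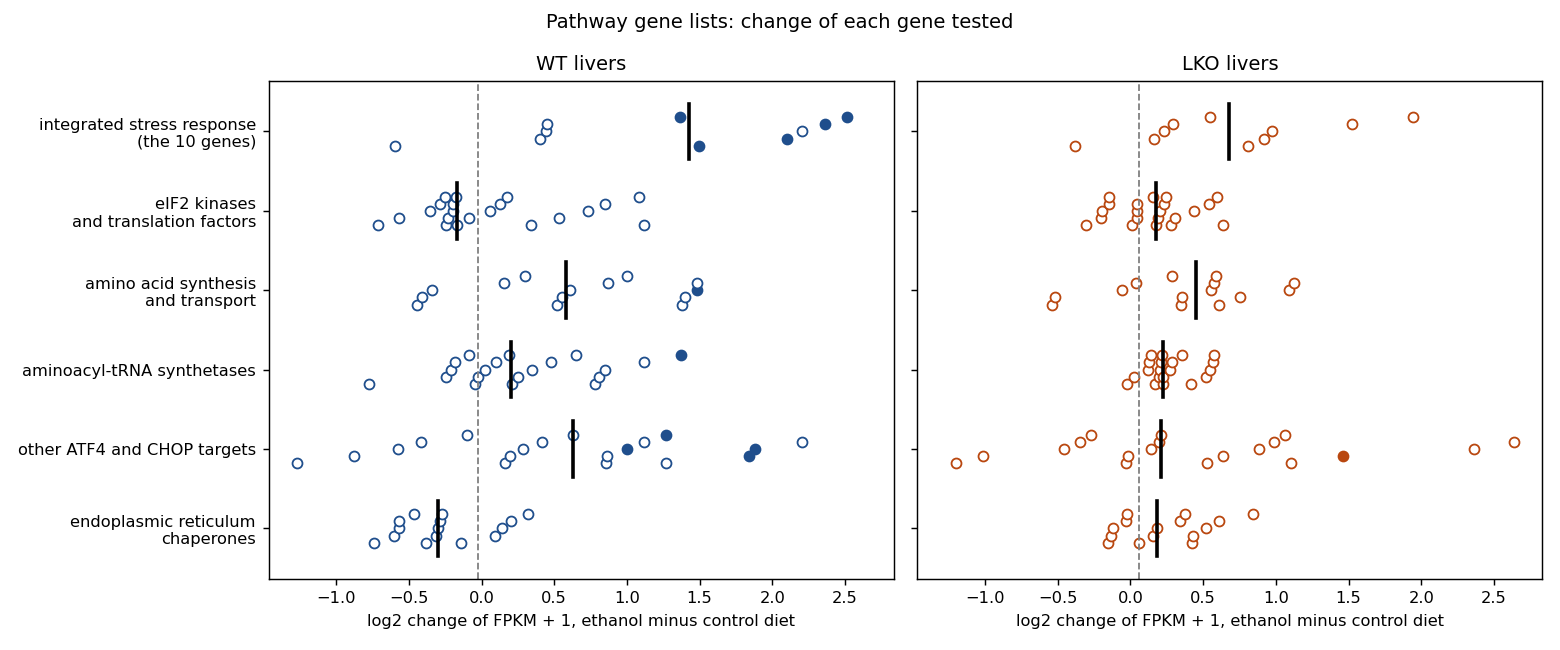
Log2 change of FPKM + 1, ethanol minus control diet, of every tested gene in 6 lists, in WT (left) and LKO livers (right); filled points passed an adjusted p under 0.05, black bars are list medians and the dashed line is the median of all genes. The 10 genes have a median of 1.43 in WT and 0.68 in LKO, and the endoplasmic reticulum chaperone list -0.30 and 0.18.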

How the data were processed

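The authors deposited 1 table of FPKM values for 35275 Ensembl gene IDs in 16 liver libraries. The submitters' processing notes name fastp, STAR 2.6.1, HTSeq, DESeq2 and the build mm10, without roles. Strandedness and annotation are not given in the sources used here. Symbols and positions came from GENCODE on GRCm38, and promoters from RefSeq on GRCm38.p6. Groups came from the treatment labels.

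Genes with at least 1 FPKM in at least 4 libraries (11298) were tested with limma 3.58.1 in R 4.3.3 on log2(FPKM + 1), 1 mean per group over all 16 libraries, with trended empirical Bayes variances and Benjamini-Hochberg adjustment. Intervals are 95% t intervals. The fit was also run on simulated reads. They held no library with an outlying profile and no variation shared within groups, so that run says nothing about either. Whole reads were recovered from the steps of the FPKM values: 99.95% of values of 20520 genes lay within 0.1 of a whole read. Motifs were matched exactly. The alternatives were pseudocounts of 0.1 and 0.5, no filter, quantile normalization, equal sums, array weights, voom on reads, a term for the 2 library sets, the groups of the contrast alone, and each library left out.

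The members and lists were chosen with earlier results of these data known. By rule, the named genes were the members, Zfp36l1, Fgf21 and the gene most correlated with each member. From each list they were at most the 3 genes with the smallest adjusted p per ethanol contrast. Outside that rule, other list genes were named where they were called, with all libraries or under an alternative.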

Additional observations from a re-analysis of the deposited data

Results flagged for a closer look

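Within groups of 4, 6 of the 40 combinations of gene and group had 1 library far from the other 3 by Dixon's test at the 95% level. Chance alone flags about 1 in 20 such groups.

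Of these, 4 lay in LKO ethanol library 2. Asns was at 21.8 FPKM there against 0.903 to 1.90 in the other 3, with Psat1 at 23.6 FPKM against 1.28 to 2.19, and Phgdh at 1.25 FPKM against 0.0471 to 0.222. Atf3 was at 16.2 FPKM in the same library against 2.99 to 3.79. Its Kupffer cell and macrophage markers summed to 223 FPKM, the highest of its group, and their part was not tested.

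In WT ethanol library 2, Atf4 was at 28.5 FPKM, and the other 3 libraries of the group were at 77.5 to 79.9 FPKM. That library also had the lowest read total. In WT control library 2, Ddit3 was at 5.75 FPKM against 8.12 to 8.52 in the other 3.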

How the results depend on the processing

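No paired analysis was run because the labels give no shared replicate numbers, and the library numbers used here are names only. Some titles carry consecutive numbers in the control and ethanol groups of a genotype, but no label says what they mark, so they were not used as pairs. Of 520 member values under alternatives other than leaving out a library, 464 kept direction and side of the threshold, 36 gained a call, 12 lost one and 8 changed sign. Of 960 values with 1 library left out, the numbers were 911, 11, 18 and 20. The causes were not tested.

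The fit with a term for library sets also left out WT ethanol library 2, so its values differ from the reported ones by both, and its p-values are too small because the sets were read from the same data. Members called, ethanol against control diet in WT (5), were 1 with no filter, 9 with array weights, 7 with the term for library sets, 2 with only the groups of the contrast, and 0 (without WT control library 2) to 6 when 1 library was left out. In LKO (0) they were 3 with array weights, 3 with the term for library sets, 1 with only the 2 groups, and 0 to 2 when 1 library was left out. For LKO against WT on ethanol (0) they were 6 with array weights and 0 to 1 with 1 library left out. Array weights gave 2 for the interaction (0), 9 for the ethanol mean (4) and 4 for the genotype mean (0), and the term for library sets gave 8 and 1 (Sesn2, lower) for those means. Leaving out WT ethanol library 2 alone gave 6 and 0 for them and 2 in LKO. The weight of WT ethanol library 2 was 0.0418 in the fit with array weights, which called 38.4% of all genes for ethanol in WT, 7.69% in LKO, 30.7% between genotypes on ethanol, 4.48% for the interaction, 36.7% for the ethanol mean and 34.1% for the genotype mean. The term for library sets called 19.7%, 10.7%, 1.58%, 0%, 32.6% and 11.1%.

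Sign changes were all in differences not called. Array weights gave -0.22 for Atf4 between genotypes on ethanol, -0.083 for its interaction and 0.010 for Atf3 between genotypes on control diet. The term for library sets gave -0.16 for that Atf4 difference and -0.16 for the Chac1 interaction, for which voom gave -0.22. Leaving out that library alone gave -0.13 and -0.066 for those 2 values. Quantile normalization gave 0.063 for Atf3 and 0.13 for Ppp1r15a on control diet between genotypes. With 1 library left out, LKO minus WT on ethanol ranged from -0.13 to 0.37 for Atf4 and from -0.54 to 0.029 for Ppp1r15a, and on control diet from -0.15 to 0.054 for Atf3 and from -0.20 to 0.0895 for Ppp1r15a. The LKO ethanol change ranged from -0.25 to 0.95 for Asns, from -1.15 to 0.36 for Chac1 and from -0.086 to 0.28 for Phgdh. The interaction ranged from -0.55 to 0.96 for Chac1, from -0.65 to 0.12 for Sesn2 and from -0.51 to 0.063 for Ppp1r15a.

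Over all genes, calls for ethanol in WT (472) ranged from 58 to 4334 over other alternatives and from 146 to 1071 with 1 library left out. In LKO (48) they ranged from 18 to 1206 and from 6 to 409. Between genotypes, the ranges were 1 to 260 and 1 to 5 on control diet (1), and 3 to 3465 and 1 to 387 on ethanol (9). For the interaction (0) they were 0 to 506 and 0 to 6. Phgdh, Asns and Psat1 rested on fewer than 30 reads in most control libraries of WT, which limits the precision of their changes.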
